A study of Mus musculus with 24 samples.

Results

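Slc8a1, Cacna1d, Cttnbp2, Trps1, Inpp4b, Adamts12, Abcg3 and Zfp462 are 8 genes chosen by their low levels, as read counts scaled to library size (CPM), in the lungs of mice given remote ischemic preconditioning, diesel exhaust and pirfenidone. They are 8 of the 78275 genes in the count table, and all 8 were among the 17490 genes that passed edgeR's filter on low counts. The choice was made on the 3 libraries of that group, by level and with no numeric limit, so every difference between that group and the others is described below without a test for these 8 genes.

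All libraries came from the lungs of male C57BL/6 mice aged 20 weeks, in 8 groups of 3. C is the healthy control group, and RIC is healthy mice that received remote ischemic conditioning, which stops and restores the blood flow of a limb in short cycles. Here the left leg had 3 cycles of 5 min without and 5 min with flow, on 3 days per week over 4 weeks. DE mice breathed diesel exhaust for 30 min per day on 5 days per week, for about 8 weeks, a schedule meant to produce lung fibrosis. DE+PFD is exposure with pirfenidone, an oral drug against lung fibrosis, at 300 mg/kg/day on 6 days per week in 0.5% carboxymethylcellulose. Conditioning came before exposure in RIC+DE, called preconditioning, and in the course of exposure in DE+RIC, called perconditioning. With pirfenidone these schedules become RIC+DE+PFD and DE+PFD+RIC respectively. No group is labelled as given carboxymethylcellulose without the drug, so any difference with pirfenidone covers both. The labels do not say how many mice stand behind a library. If libraries of a group share animals, the p-values measure technical spread only.

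The 8 genes have different roles. Slc8a1 encodes a sodium-calcium exchanger that moves calcium out of the cell, and Cacna1d encodes the pore of an L-type voltage-gated calcium channel that lets calcium in. Calcium entry and removal set contraction in smooth and cardiac muscle and take part in the activation of fibroblasts. Cttnbp2 encodes a protein that binds cortactin and striatin at the actin cytoskeleton, best known from neurons. Inpp4b encodes a phosphatase that removes a phosphate from a lipid made by PI3-kinase, a brake on Akt signalling. Trps1 encodes a transcriptional repressor with a GATA-type zinc finger that is known from skeletal and hair development. Zfp462 encodes a large zinc finger protein linked to heterochromatin. Adamts12 encodes a secreted metalloprotease of the extracellular matrix, the tissue that accumulates in fibrosis. Abcg3 encodes a membrane transporter of the ABCG family found in rodents.

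Promoter sequences were available for 6 of the 8 genes (RefSeq, GRCm38.p6), with 7 start sites in all, and none was given for Trps1 and Zfp462. Each runs from 250 bases before to 50 bases after the start of transcription, written 5′ to 3′ on the strand of the gene. Those of Slc8a1 (chr17:81738338-81738637, minus strand), Cttnbp2 (chr6:18514820-18515119, minus strand) and Adamts12 (chr15:11064523-11064822, plus strand) are shown as examples with a GATA-type match, with GC boxes and with none of the motifs searched; both start sites of Cacna1d lie outside them in base composition, at 40.3% and 87.3% G and C against 50.7%, 69.3% and 62.0%. The motifs searched for on both strands were the GC box, spelled GGGCGG, the element of many regulated promoters spelled TATAAA, the zinc finger site of the kind bound by Trps1, spelled GATAAG, and the element spelled CCAAT. Every match is in capitals.
Slc8a1: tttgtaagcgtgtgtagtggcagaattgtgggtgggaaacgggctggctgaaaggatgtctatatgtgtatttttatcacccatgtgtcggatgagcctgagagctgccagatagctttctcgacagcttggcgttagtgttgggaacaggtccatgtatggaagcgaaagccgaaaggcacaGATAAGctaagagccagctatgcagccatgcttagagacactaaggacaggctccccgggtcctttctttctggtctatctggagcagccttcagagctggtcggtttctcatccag
Cttnbp2: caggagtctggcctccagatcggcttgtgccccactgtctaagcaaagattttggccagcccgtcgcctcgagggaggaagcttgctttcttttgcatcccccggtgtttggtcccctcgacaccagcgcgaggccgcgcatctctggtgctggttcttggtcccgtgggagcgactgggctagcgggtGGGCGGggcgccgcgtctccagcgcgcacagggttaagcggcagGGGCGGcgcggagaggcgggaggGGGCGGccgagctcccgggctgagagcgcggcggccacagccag
Adamts12: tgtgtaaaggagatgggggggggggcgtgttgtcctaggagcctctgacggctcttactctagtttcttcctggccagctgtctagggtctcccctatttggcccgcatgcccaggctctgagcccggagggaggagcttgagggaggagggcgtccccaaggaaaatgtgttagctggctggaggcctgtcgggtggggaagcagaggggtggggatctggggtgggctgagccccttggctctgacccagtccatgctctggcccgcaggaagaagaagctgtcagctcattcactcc
The Slc8a1 promoter held 9 CpG dinucleotides and 1 GATAAG, the Cttnbp2 promoter 30 CpG and 3 GGGCGG, and the Adamts12 promoter 7 CpG and 0 of the 4 motifs. Cacna1d has a pair of start sites, with 4 CpG at one and 63 at the other. The promoter of Inpp4b held 25 CpG and that of Abcg3 11, against a median of 7 over all 32851 promoters of that length. GGGCGG stands in 35.7% of all these promoters, TATAAA in 13.6%, GATAAG in 7.44% and CCAAT in 37.4%. No motif was found in all 7 promoters. A match describes the letters and does not show that a factor binds there.

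Total counts ran from 3906807 to 18494156 per library. The labels date 9 libraries to March, 14 to October and 1 to November, and do not say what was done on those days. RIC+DE+PFD 1 is a March library and RIC+DE+PFD 2 and 3 are October libraries. RIC+DE+PFD 1 stood apart from all others. Its scaling factor from the trimmed mean of M-values (TMM, edgeR's correction for a few genes taking many reads) was 0.638, where the other 23 lay between 0.922 and 1.158, and its 100 most abundant genes took 39.6% of its counts, against 18.1% to 29.7% elsewhere outside its group. Fold changes, ranks and list counts with this group are therefore given with and without that library, and levels library by library. Markers of alveolar, airway, endothelial, fibroblast and blood cells fixed for this report were detected in the group.

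Both calcium genes had their lowest group mean in RIC+DE+PFD. In CPM on TMM-scaled library sizes, Slc8a1 stood at 10.9, 18.9 and 23.6 in RIC+DE+PFD 1, 2 and 3. In the 21 other libraries it ran from 29.1 in C 1 through a median of 36.6 to 51.1 in DE+PFD 2. The 3 values were all below every other library, at 29.9%, 51.7% and 64.6% of that median. Of all genes tested, 0.595% had the 3 libraries of this group below all 21 others in this way. Cacna1d stood at 11.8, 24.5 and 19.8 in RIC+DE+PFD, and at 20.1 (C 1), 38.3 and 50.8 (DE+PFD 2) as the lowest, median and highest of the others. Here the groups overlapped: RIC+DE+PFD 2 lay above C 1, a March library, and only RIC+DE+PFD 1 and 3 lay below all 21. Among the October libraries, RIC+DE+PFD 2 and 3 were both below the lowest of the 12 others, which was 28.4 CPM. The share of all genes below in this way within October was not counted.

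The cytoskeletal gene Cttnbp2 had 4.24, 4.00 and 2.08 CPM in RIC+DE+PFD 1, 2 and 3. The others ran from 5.73 (RIC+DE 2) through a median of 9.36 to 12.4 (RIC 2), so the groups did not overlap. It differed from the other 7 genes in that RIC+DE+PFD 1 was not the lowest library of the group: the values were 45.3%, 42.7% and 22.2% of the median. The 3 libraries of RIC+DE, which received preconditioning without the drug, were 6.47, 5.73 and 6.86 CPM, below the 3 DE libraries at 9.09, 10.2 and 10.2. All RIC+DE libraries date to March and all DE libraries to October, so batch and group cannot be told apart in these levels. How many of all genes separate RIC+DE from DE in this way was not counted. In RIC+DE minus DE, 17.3% of the genes tested had an edgeR unadjusted p under 0.05. The lipid phosphatase gene Inpp4b had 9.77, 13.3 and 12.8 CPM in RIC+DE+PFD. Elsewhere it ran from 16.8 (RIC+DE 2) through 25.1 to 43.9 (DE 1), again without overlap.

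Both genes of nuclear proteins were below all 21 other libraries as well. Trps1 was 9.38, 13.6 and 16.5 CPM in RIC+DE+PFD, against 17.0 (DE+PFD+RIC 2), 23.8 and 34.8 (DE+RIC 2) as lowest, median and highest. RIC+DE+PFD 3 at 16.5 CPM was close to that lowest value. Zfp462 was 5.65, 7.64 and 6.23 CPM, against 8.36 (DE 2), 14.9 and 19.6 (RIC+DE 1). The low end of the others came from October libraries, since the lowest of the 8 other March libraries was 13.9 CPM.

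Adamts12, the matrix protease gene, had the lowest group mean relative to the others over the 3 libraries, and Cttnbp2 without RIC+DE+PFD 1. Adamts12 had 0.899, 1.09 and 1.38 CPM in RIC+DE+PFD, which rest on 7, 12 and 12 reads, and 2.11 (C 1), 3.52 and 7.23 (DE 1) as lowest, median and highest elsewhere. Its 3 values were 25.6%, 31.0% and 39.4% of the median. Abcg3, the transporter gene, was 5.65, 7.18 and 7.38 CPM, against 7.59 (DE+PFD+RIC 1), 12.3 and 24.8 (DE 1). The group lay just below the lowest other library for this gene. The counts in RIC+DE+PFD were 44, 79 and 64 reads for Abcg3, and 85, 208 and 205 reads for Slc8a1, so the low values of Adamts12 are the least precise of the 8.

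**Figure D1:**
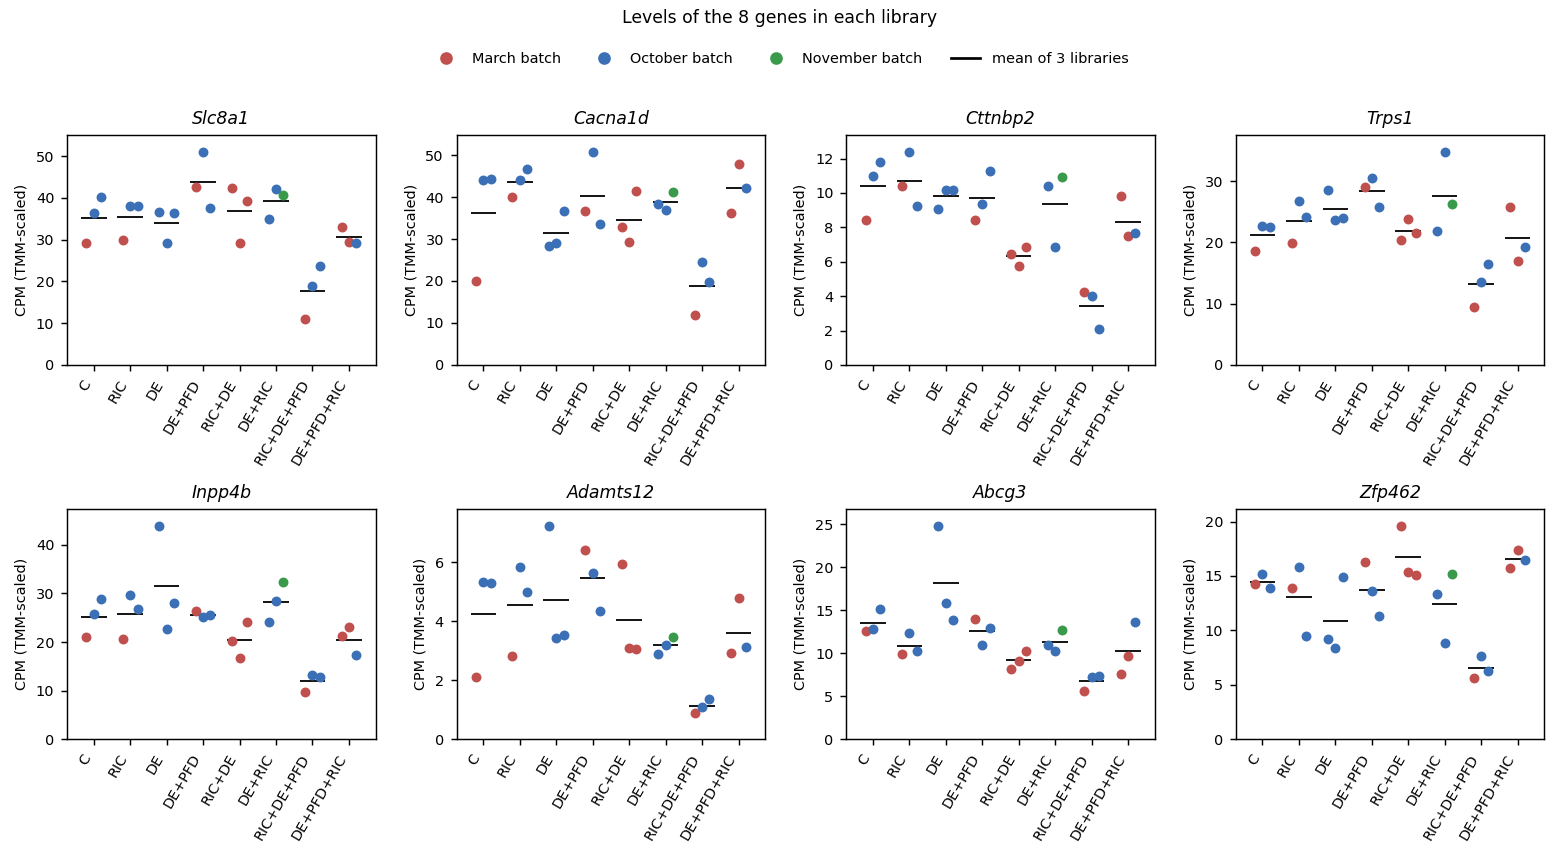
Level of each of the 8 genes in every library, by group, in CPM on TMM-scaled library sizes; each point is 1 library, coloured by the month in its label, and the bar is the mean of 3 libraries. RIC+DE+PFD has the lowest mean in all 8 panels, and only Cacna1d has a library of another group (C 1, at 20.1 CPM) below a RIC+DE+PFD library.

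The group means followed the same order at the bottom for all 8 genes. RIC+DE+PFD came last, with Slc8a1 at 17.8 ± 6.43 CPM (SD, n = 3), Cacna1d at 18.7 ± 6.40, Cttnbp2 at 3.44 ± 1.19, Trps1 at 13.2 ± 3.58, Inpp4b at 11.9 ± 1.91, Adamts12 at 1.12 ± 0.244, Abcg3 at 6.74 ± 0.946 and Zfp462 at 6.51 ± 1.02. The gap to the next group was wider than the larger of the 2 SDs for all 8. The last place and this gap are largely fixed by the choice of the genes on these libraries. How many of all genes have such a gap was not counted. As a share of the median of the 21 others, the group mean ran from 0.32 (Adamts12) to 0.553 (Trps1), and without RIC+DE+PFD 1 from 0.325 (Cttnbp2) to 0.632 (Trps1). That next group differed between genes. It was RIC+DE for Cttnbp2 (6.35 ± 0.572 CPM), Inpp4b (20.4 ± 3.70) and Abcg3 (9.22 ± 1.07), DE+PFD+RIC for Slc8a1 (30.6 ± 2.20) and Trps1 (20.6 ± 4.53), DE for Cacna1d (31.3 ± 4.57) and Zfp462 (10.8 ± 3.58), and DE+RIC for Adamts12 (3.20 ± 0.292). Among the 7 groups above RIC+DE+PFD, neighbours in the order differed by more than the larger SD in 3 places: RIC+DE and DE+PFD+RIC for Cttnbp2, DE+PFD+RIC and C for Inpp4b, and C and DE+PFD+RIC for Zfp462.

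Levels can be compared between genes only per length of transcript. Divided by the kilobases of annotated exon, the mean in C was highest for Abcg3 at 3.81 CPM per kb and lowest for Adamts12 at 0.388 CPM per kb, with Cacna1d at 2.87, Inpp4b at 1.93, Slc8a1 at 1.87, Trps1 at 1.59, Zfp462 at 1.35 and Cttnbp2 at 1.18. In RIC+DE+PFD the same scale gave 1.90 CPM per kb for Abcg3 and 0.103 for Adamts12, still the highest and lowest of the 8, and 2.05 and 0.113 without RIC+DE+PFD 1.

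The scaling sets how low RIC+DE+PFD 1 appears. On CPM from total counts, with no TMM factor, its values fell to between 15.8% (Adamts12) and 30.2% (Abcg3) of the median of the 21 others, where TMM scaling gave 25.6% and 46.1%. RIC+DE+PFD 2 and 3 hardly moved: Slc8a1 was at 49.7% and 60.3% of the median on total counts and at 51.7% and 64.6% after TMM. On both scales RIC+DE+PFD 1 lay below all 8 other March libraries for each of the 8 genes, and RIC+DE+PFD 2 and 3 below all 12 other October libraries. The choice of the genes on these libraries largely fixes this. The share of all genes that lie so within a batch was not counted.

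**Figure D2:**
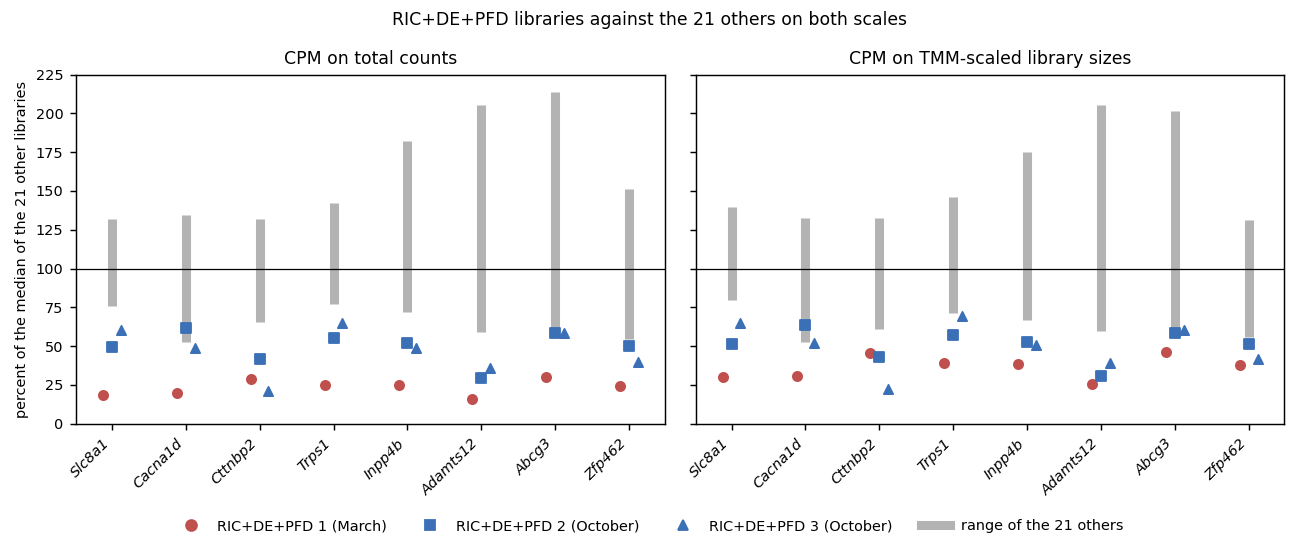
RIC+DE+PFD libraries as a percent of the median of the 21 other libraries (100 on the vertical axis), on CPM from total counts (left) and from TMM-scaled library sizes (right); symbols are single libraries and grey bars the range of the 21 others. The March library sits at 15.8% to 30.2% on the left and 25.6% to 46.1% on the right, while the October libraries stay in nearly the same place.

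As log2 fold changes from edgeR, with the batch of the label as a term, RIC+DE+PFD minus DE was -0.86 ± 0.21 (SE) for Slc8a1, -0.62 ± 0.24 for Cacna1d, -1.49 ± 0.27 for Cttnbp2, -1.35 ± 0.23 for Inpp4b, -0.89 ± 0.21 for Trps1, -0.74 ± 0.25 for Zfp462, -1.97 ± 0.45 for Adamts12 and -1.37 ± 0.23 for Abcg3. Without RIC+DE+PFD 1 these became -0.69, -0.50, -1.67, -1.29, -0.77, -0.64, -1.97 and -1.34 in the same order of genes. The value of Cttnbp2 moved away from 0 without that library and the others moved toward 0 or stayed. Single DE libraries mattered too. Zfp462 was at -0.45 without DE 3, the DE library in which it was highest, and without DE 1 Inpp4b was at -1.03, Adamts12 at -1.51 and Abcg3 at -1.07.

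RIC+DE+PFD minus DE+PFD, which differ in preconditioning, was -1.33 ± 0.21 for Slc8a1, -1.14 ± 0.23 for Cacna1d, -1.49 ± 0.26 for Cttnbp2, -1.11 ± 0.23 for Inpp4b, -1.13 ± 0.21 for Trps1, -1.07 ± 0.25 for Zfp462, -2.33 ± 0.44 for Adamts12 and -0.94 ± 0.23 for Abcg3. Without RIC+DE+PFD 1 these were -1.10, -0.97, -1.71, -1.02, -0.96, -0.94, -2.31 and -0.89. RIC+DE+PFD minus C ranged from -0.70 for Trps1 to -1.85 for Adamts12, and from -0.54 to -1.84 for the same genes without that library. These 3 comparisons share the RIC+DE+PFD libraries that chose the genes, so their common sign carries no further information. In none of them did edgeR call any of the 17490 genes at an adjusted p under 0.05: the percent called was 0.0% in RIC+DE+PFD minus DE (1665 genes at an unadjusted p under 0.05, and 69 called by DESeq2), 0.0% in RIC+DE+PFD minus DE+PFD (3037, and 138 by DESeq2) and 0.0% in RIC+DE+PFD minus C (2988, and 37 by DESeq2).

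Lying below every other library was uncommon but not limited to these genes. Of the 17490 genes tested, 104 (0.595%) had all 3 RIC+DE+PFD libraries below all 21 others on TMM-scaled CPM, and 7 of the 8 genes, all but Cacna1d, were among them, as their choice implies. By the log2 ratio of the group mean to the median of the others, Adamts12 ranked 6 of 104 (-1.64), Cttnbp2 8 (-1.44), Zfp462 12 (-1.20), Inpp4b 20 (-1.07), Slc8a1 22 (-1.04), Abcg3 33 (-0.86) and Trps1 34 (-0.86). Their ranks within the same 104 genes without RIC+DE+PFD 1 were 5 (-1.51), 3 (-1.62), 13 (-1.11), 18 (-0.95), 25 (-0.78), 29 (-0.75) and 35 (-0.66). Another 79 genes (0.452%) lay above all others. With RIC+DE+PFD 2 and 3 alone, 165 genes (0.943%) lay below and 170 (0.972%) above, with the same 7 genes among the lower. On total counts the split shifted to 246 genes (1.41%) below and 7 (0.04%) above with 3 libraries, and to 318 (1.82%) below and 33 (0.189%) above without RIC+DE+PFD 1.

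A property the choice did not use is the length of the genes, and most of the 8 are long. The gene span from first to last exon, from the GRCm38 annotation, was 785.4 kb for Inpp4b, 451.5 kb for Cacna1d, 365.3 kb for Slc8a1, 284.4 kb for Adamts12, 235.7 kb for Trps1, 148.4 kb for Cttnbp2, 138.5 kb for Zfp462 and 47.7 kb for Abcg3. Their median was 260.1 kb, against 25.0 kb over 14359 coding genes tested, and 7 of the 8 fell in the longest 10% (132.7 kb or more). By annotated exon length the median was 11.8 kb against 4.38 kb, and 6 of the 8 fell in the longest 10% (9.85 kb or more). Abcg3, with 3.55 kb of exon, was shorter than most coding genes. Long genes were frequent among all genes that were low in this group: 44 of the 1436 coding genes in the longest 10% by span (3.06%) lay below all 21 other libraries, against 42 of the 12923 others (0.325%). These shares were 3.83% and 0.542% without RIC+DE+PFD 1.

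Library by library, RIC+DE+PFD 1 had low values for long genes in general. The median deviation of the longest 10% of coding genes by span from the median of each gene over the 24 libraries was -0.90 on the log2 scale in RIC+DE+PFD 1, -0.10 in RIC+DE+PFD 2 and -0.13 in RIC+DE+PFD 3, and it ran from -0.07 to 0.18 in the others. The 8 genes had a median deviation of -1.29, -0.86 and -0.90 in the same 3 libraries, and -0.29 to 0.26 elsewhere. The 26 ribosomal protein genes, which are short, were at 2.05, 0.05 and 0.18, against -0.96 to 0.38. RIC+DE+PFD 2 and 3 thus lay within the range of the other libraries for ribosomal protein genes and just below it for genes long by span. For the longest 10% by exon length the medians were -1.13, -0.02 and -0.11 in RIC+DE+PFD 1, 2 and 3, against -0.15 to 0.32. By that measure RIC+DE+PFD 2 and 3 lay within the range of the others. The 8 genes were chosen as low in these libraries and the long genes were not, so the sizes of the deviations do not bear on length.

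**Figure D3:**
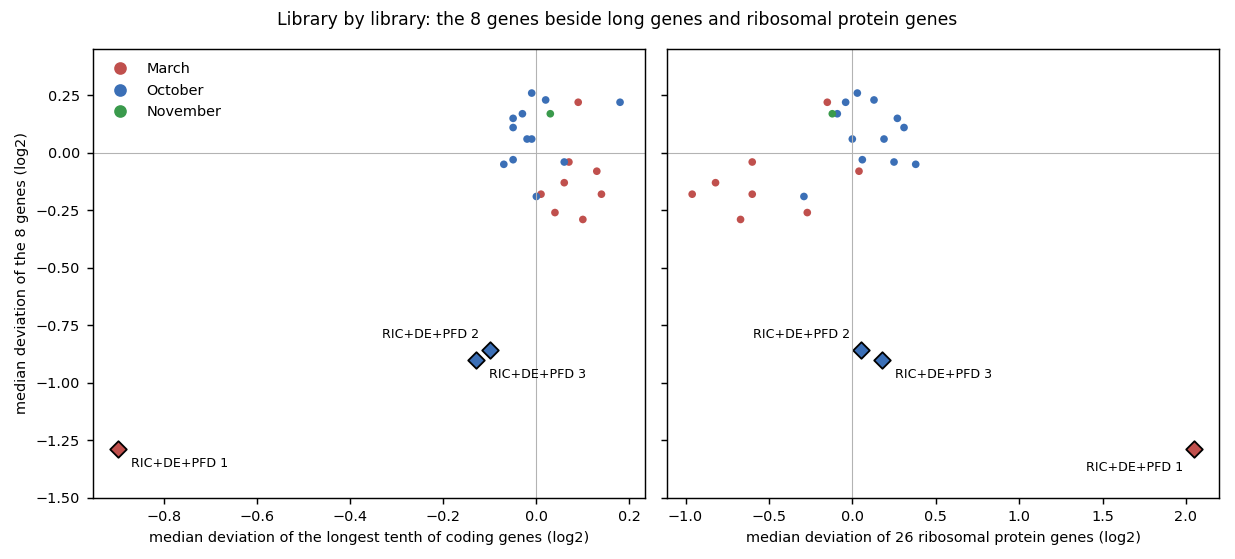
Median log2 deviation of the 8 genes in each library (vertical) against that of the longest 10% of coding genes by span (left) and of 26 ribosomal protein genes (right), each from the median of each gene over the 24 libraries; points are libraries, coloured by month. RIC+DE+PFD 1 is at the edge of both horizontal axes (-0.90 and 2.05), and RIC+DE+PFD 2 and 3 are low on the vertical axis (-0.86 and -0.90), just below all 21 others on the left horizontal axis (-0.10 and -0.13) and within their range on the right (0.05 and 0.18).

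The median deviation of coding genes of like span was subtracted in each library, in 20 bins of span. Over all 3 RIC+DE+PFD libraries, the 8 differences then stayed below 0 and were smaller. RIC+DE+PFD minus DE went from -0.99 to -0.60 for Slc8a1, from -0.79 to -0.40 for Cacna1d, from -1.52 to -1.26 for Cttnbp2, from -0.97 to -0.59 for Trps1, from -1.34 to -0.96 for Inpp4b, from -1.84 to -1.46 for Adamts12, from -0.68 to -0.42 for Zfp462 and from -1.37 to -1.28 for Abcg3. These are differences of mean log2 deviations, with no batch term. The smallest of the differences from C was that of Trps1, which went from -0.71 to -0.34 with span and to -0.22 with exon length removed (-0.35 and -0.39 without RIC+DE+PFD 1, from -0.49). After removal by span, Slc8a1 and Adamts12 had all 3 RIC+DE+PFD libraries below the 21 others. With exon length this held for Abcg3 alone. The 8 genes were chosen as low in these libraries, so this is no test of them. The share of all coding genes below in this way after removal was not counted. Without RIC+DE+PFD 1 the differences from DE after removal by span ran from -0.35 for Cacna1d to -1.71 for Cttnbp2, where they had been -0.49 and -1.70 before. Abcg3 (-1.25 to -1.32) and Zfp462 (-0.59 to -0.60) also moved slightly away from 0, and the other genes moved toward 0. With exon length removed and that library left out, all 8 differences from DE moved slightly away from 0, among them Slc8a1 (-0.67 to -0.70) and Adamts12 (-1.71 to -1.76). This held against DE only. In the differences from DE+PFD and from C without that library, all of the 8 but Abcg3 moved toward 0, by span and by exon length. With exon length removed, Slc8a1 went from -1.03 to -0.91 against DE+PFD and from -0.72 to -0.62 against C. Whether length accounts for the low values was not tested.

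Marker genes of other cell types moved in RIC+DE+PFD 1 and much less in the other libraries of its group. The summed CPM of 3 club cell markers was 170075.9, 43370.5 and 43133.4 in RIC+DE+PFD 1, 2 and 3, against 19060.0 to 62413.8 elsewhere, and that of 5 alveolar type 2 markers was 86561.1, 34434.6 and 31746.3, against 11196.3 to 40915.0. The 6 fibroblast markers summed to 767.8, 1142.4 and 1130.6 CPM, where the others ran from 860.1 through a median of 1298.2 to 1750.4. RIC+DE+PFD 2 and 3 were therefore within the range of the other libraries for fibroblast, club and alveolar type 2 markers. The 4 RNAs retained in the nucleus, led by Neat1 and Malat1, summed to 681.8, 2017.5 and 2530.9 CPM, against 2033.4 to 4157.1, so that RIC+DE+PFD 1 was far below and RIC+DE+PFD 2 slightly below all others. The 6 cardiomyocyte markers, of interest because Slc8a1 and Cacna1d are also heart genes, summed to 861.1, 1090.7 and 714.5 CPM, within the range of 286.8 to 3449.2 elsewhere. Of the 19 marker lists, the group had 1 gene at 0 in all 3 libraries, Myh4 of skeletal muscle. The part of these shifts in the low values was not tested, and in whole lung fewer cells of a type and less RNA per cell cannot be told apart.

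Comparisons with RIC+DE+PFD on neither side test whether the same genes respond to exhaust, conditioning or the drug on their own. The fit used all 24 libraries, so the RIC+DE+PFD libraries still entered its spread and its batch term. These tests are therefore not fully independent of the choice. The March minus October difference of Slc8a1, for example, was -0.31 ± 0.14 with RIC+DE+PFD 1 and -0.15 ± 0.12 without it. The edgeR fit called 0 of the 8 genes, and 0 genes of 17490, in each of 6 such comparisons. In DE minus C, exposure alone, the 8 differences ran from -0.41 ± 0.25 for Zfp462 to 0.36 ± 0.22 for Abcg3, with edgeR adjusted p between 0.988 and 0.993. Over all genes 0.0% were called, 582 had an unadjusted p under 0.05 and DESeq2 called 17. In RIC minus C, conditioning of healthy mice, they ran from -0.32 ± 0.22 for Abcg3 to 0.33 ± 0.23 for Cacna1d, all with an edgeR adjusted p of 1. There 0.0% were called, 210 genes had an unadjusted p under 0.05 and DESeq2 called 2.

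Both calcium genes had higher values with pirfenidone alone, though neither passed the threshold. In DE+PFD minus DE, Slc8a1 was 42.7, 51.1 and 37.5 CPM in DE+PFD and 36.6, 29.1 and 36.4 in DE. The DE+PFD libraries were all above the DE libraries, the lowest of them narrowly (37.5 against 36.6 CPM). How many of all genes separate in this way was not counted. The edgeR log2 fold change of Slc8a1 was 0.47 ± 0.21 (unadjusted p = 0.0368, adjusted p = 1). For Cacna1d the DE+PFD libraries at 36.6, 50.8 and 33.6 CPM overlapped the DE libraries at 28.4, 29.0 and 36.6, with an edgeR difference of 0.52 ± 0.24 (unadjusted p = 0.041, adjusted p = 1). Among the other genes Abcg3 had -0.43 ± 0.23, Adamts12 0.36 ± 0.41 and Cttnbp2 0.00 ± 0.26. The percent called was 0.0%, with 497 genes at an unadjusted p under 0.05 and 15 called by DESeq2. When conditioning during exposure was added to the drug (DE+PFD+RIC minus DE+PFD), the largest differences were -0.47 ± 0.39 for Adamts12, -0.40 ± 0.21 for Slc8a1 and -0.39 ± 0.21 for Trps1, with edgeR adjusted p of 0.903 for all 3. That comparison also had 0.0% called, 745 genes at an unadjusted p under 0.05 and 5 called by DESeq2.

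Abcg3 had its highest values in exposed mice without treatment, at 24.8, 15.8 and 13.9 CPM in DE. In RIC+DE it was 8.21, 9.12 and 10.3 CPM, and in DE+RIC 11.0, 10.3 and 12.7 CPM, so both conditioned groups lay below all 3 DE libraries. So did the RIC libraries of healthy mice at 9.94, 12.3 and 10.3 CPM, while C had 12.6, 12.8 and 15.1 CPM. How many of all genes separate from DE in this way was not counted. The DE level rests in part on DE 1, at 24.8 CPM. RIC+DE minus DE was -0.76 ± 0.26 in the edgeR fit (unadjusted p = 0.00877, adjusted p = 0.274), and DE+RIC minus DE was -0.77 ± 0.25 (unadjusted p = 0.00581, adjusted p = 1). Without DE 1 these fell to -0.47 ± 0.25 (edgeR unadjusted p = 0.0772, adjusted p = 0.371) and -0.48 ± 0.24 (edgeR unadjusted p = 0.0598, adjusted p = 1), and DE minus C fell from 0.36 to 0.07. All RIC+DE libraries date to March and all DE libraries to October, so no within-batch value exists and that comparison rests on the batch term. With no batch term, Abcg3 reached -0.98 ± 0.22 with an edgeR adjusted p of 0.0475. With the compared groups alone it reached -0.97 ± 0.23 (edgeR adjusted p = 0.0232), and Cttnbp2 reached -0.61 ± 0.19 (edgeR adjusted p = 0.049). Over all alternatives the adjusted p ran from 0.0232 to 0.463 for Abcg3 and from 0.049 to 0.699 for Cttnbp2. In those fits batch and group cannot be told apart.

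The remaining genes in RIC+DE minus DE had differences of 0.61 ± 0.28 for Cacna1d (edgeR adjusted p = 0.282), 0.57 ± 0.29 for Zfp462, 0.43 ± 0.24 for Slc8a1, 0.13 ± 0.47 for Adamts12, -0.01 ± 0.25 for Trps1, -0.46 ± 0.26 for Inpp4b and -0.57 ± 0.29 for Cttnbp2. This comparison had 0.0% called, with 3024 genes at an unadjusted p under 0.05 and 80 called by DESeq2. DE+RIC minus DE had 0.0% called, 565 genes at an unadjusted p under 0.05 and 13 called by DESeq2, and apart from Abcg3 the 8 genes ran from -0.65 ± 0.45 (Adamts12) to 0.27 ± 0.25 (Cacna1d). DE+RIC 3 is the only November library and has its own batch level, so it adds nothing to the DE+RIC estimate in that fit.

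**Figure D4:**
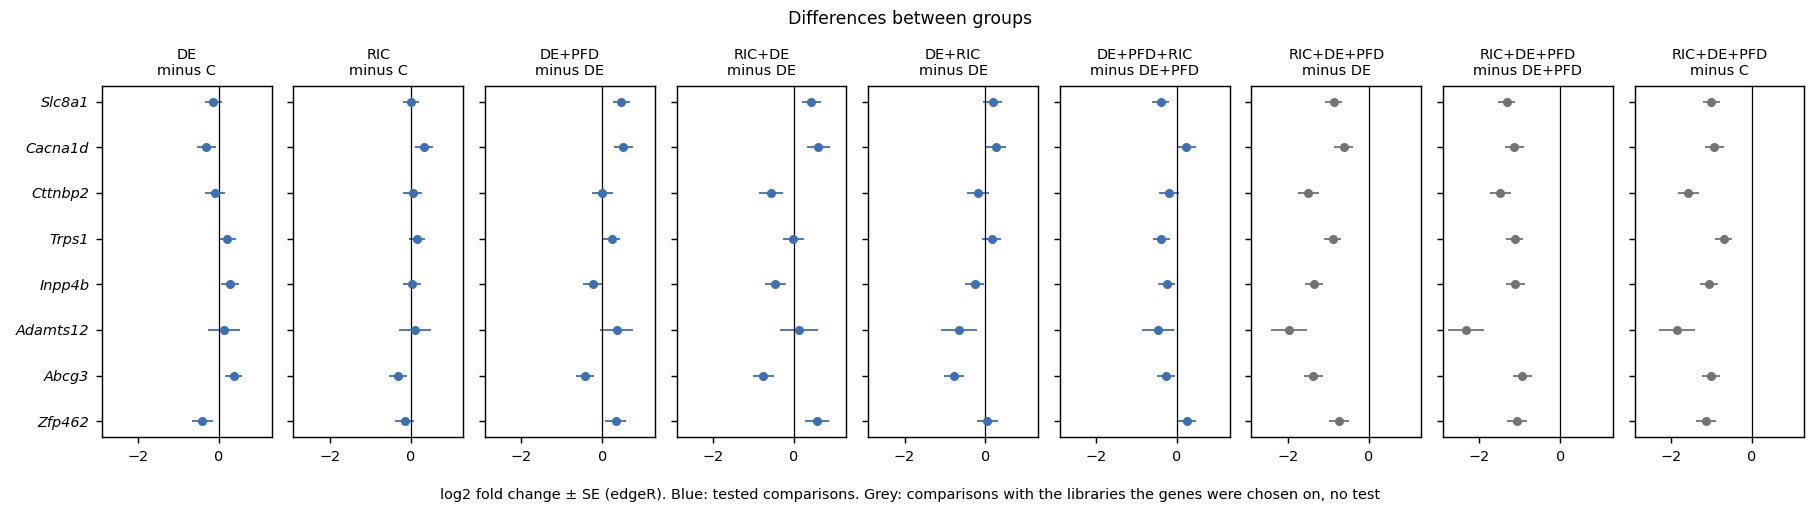
Log2 fold change ± SE (edgeR, all 24 libraries) of the 8 genes in 9 comparisons; blue marks comparisons that were tested and grey those with the RIC+DE+PFD libraries on which the genes were chosen. The grey points all lie left of 0, from -0.62 (Cacna1d) to -2.33 (Adamts12), and the blue points lie between -0.77 and 0.61.

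A test for any difference among the 7 groups other than RIC+DE+PFD called 0.0% of genes in edgeR (786 at an unadjusted p under 0.05, and 143 called by DESeq2). Abcg3 had the largest F of the 8, 2.91 (edgeR unadjusted p = 0.0342, adjusted p = 0.993). March minus October, the batch difference, was -0.46 ± 0.16 for Cacna1d (edgeR adjusted p = 0.182) and -0.31 ± 0.14 for Slc8a1 (edgeR adjusted p = 0.306), and the other 6 genes lay between -0.38 (Adamts12) and 0.06 (Zfp462). In that comparison edgeR called 1 gene of 17490 (0.00572%), which was none of the 8, with 2592 at an unadjusted p under 0.05 and 535 called by DESeq2. Without RIC+DE+PFD 1 the edgeR count was 2317, and did not include Cacna1d (-0.34 ± 0.16, edgeR adjusted p = 0.158) or Slc8a1 (-0.15 ± 0.12, edgeR adjusted p = 0.424).

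Genes related to the 8 were taken from lists by family and pathway. None of the 8 lists of related genes had a gene called by edgeR in RIC+DE+PFD minus DE (0.0% called over all genes). There edgeR called 7 of 17598 genes (0.0398%) without RIC+DE+PFD 1. They were Cttnbp2 and Sh3kbp1, which were lower, and Crim1, Peli3, Adgra2, Hspa2 and Tmem200b, which were higher. Cttnbp2, the only one in a list, was chosen on these libraries, so its call is no test of it. Of 43 calcium exchangers, channels and pumps tested, 29 lay below 0 with a median log2 of -0.26, and -0.20 without Slc8a1 and Cacna1d. Over all genes 45.8% lay below 0 and the median was 0.04. The other exchangers of the family had -0.58 ± 0.45 (Slc8a2), 0.07 ± 0.64 (Slc8a3) and -0.07 ± 0.18 (Slc8b1), and the related channel gene Cacna1c had -0.50 ± 0.31. Of 17 PI3-kinase and Akt genes, 14 lay below 0, with a median of -0.19, while 30 phosphoinositide phosphatases had 12 below 0 and a median of 0.02 (8 and 0.11 without RIC+DE+PFD 1). Without Inpp4b, 11 of 29 phosphatases lay below 0 with a median of 0.02. Inpp4a, the closest relative of Inpp4b, was at -0.02 ± 0.30. The medians of the calcium and PI3-kinase lists came nearer to 0 without RIC+DE+PFD 1, at -0.10 (26 of 43 below 0) and -0.01 (9 of 17), with 52.9% of all genes below 0.

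Among 21 ADAMTS genes, 11 lay below 0 with a median of -0.09 (10 of 20 and -0.03 without Adamts12). Without RIC+DE+PFD 1 the median of the 21 changed sign to 0.27, with 8 of 21 below 0. Of the 4 ABCG transporters tested, Abcg1 was at 0.14 ± 0.20, Abcg2 at -0.04 ± 0.23 and Abcg4 at 0.84 ± 0.91. The 12 GATA-type zinc finger proteins and cofactors had 5 below 0 (median 0.07), the 15 genes of the cortactin and striatin complex 5 (median 0.09) and the 13 heterochromatin factors 6 (median 0.06). These were 6 (median 0.08), 7 (median 0.09) and 2 (median 0.26) without RIC+DE+PFD 1. With that library, but without Trps1, Cttnbp2 and Zfp462, they were 4 of 11 (median 0.09), 4 of 14 (median 0.11) and 5 of 12 (median 0.11). Cttnbp2nl, the paralog of Cttnbp2, was at 0.09 ± 0.27. In RIC+DE+PFD minus DE+PFD the counts below 0 were higher for most lists, among them 31 of 43 calcium genes (median -0.30), 15 of 21 ADAMTS genes (median -0.25) and 4 of 4 ABCG transporters (median -0.45), with 48.6% of all genes below 0. Those lists hold genes chosen on these libraries. With the chosen genes taken out, they had 29 of 41 (median -0.27), 14 of 20 (median -0.22) and 3 of 3 (median -0.26). For the full lists without RIC+DE+PFD 1, the counts were 25 of 43 (median -0.08), 9 of 21 (median 0.10) and 3 of 4 (median -0.17). There 50.7% of all genes lay below 0, so the lower medians of these lists rest largely on that library. No list had a gene called by edgeR in any of the 6 comparisons without RIC+DE+PFD.

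Outside RIC+DE+PFD the 8 genes differed in how much they varied. The SD of log2 CPM over the 21 libraries ran from 0.23 for Slc8a1, larger than that of 26.7% of genes tested, to 0.47 for Adamts12, larger than that of 73.3%. Abcg3 (59.5%) and Zfp462 (53.7%) were also above the middle, and the highest library exceeded the lowest by 1.76-fold for Slc8a1 and 3.43-fold for Adamts12. Slc8a1 and Trps1 followed each other most closely of the 28 pairs, with a mean absolute difference of centred log2 CPM of 0.153 over the 21 libraries, and Adamts12 and Zfp462 least, at 0.48. The genes nearest in pattern by that measure, among all tested, were Ldlrad4 (0.132), Mindy4 (0.132) and Ghr (0.133) for Slc8a1, Exoc4 (0.104), Ghr (0.108) and Pibf1 (0.112) for Trps1, and Vcpkmt (0.133), Ldlrad4 (0.141) and Btd (0.151) for Inpp4b. They were Afap1l2 (0.137) for Cacna1d, Tor2a (0.134) for Cttnbp2, Upb1 (0.215) for Adamts12, Tmem86a (0.154) for Abcg3 and Zscan25 (0.139) for Zfp462. The libraries share batches, which enter this measure.

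Few of these neighbours were as low in RIC+DE+PFD as the 8 genes. The 8 genes were chosen as low there and the neighbours were not, so the choice largely fixes this contrast. Of the 24 places, 3 for each of the 8 genes, a neighbour with all 3 RIC+DE+PFD libraries below all others filled 1. It was Sh3kbp1, the third nearest to Abcg3 (0.155), at 32.0, 30.0 and 27.1 CPM against a lowest value of 34.0 elsewhere. Over all genes tested, the share below all others in this way was 0.595%, and 24 places are too few to compare with it. Ldlrad4 had 28.3, 48.1 and 49.4 CPM, against a lowest of 49.3, so 2 of its 3 libraries were below all others. Ghr, near to both Slc8a1 and Trps1, had 125.9, 88.7 and 80.6 CPM against a median of 115.8, and RIC+DE+PFD 1 was its highest library of the group.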

How the data were processed

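Lung RNA in 24 libraries (8 groups of 3) was captured by its poly(A) tail and sequenced with strand information, per the labels' protocols. The submitters' processing notes name FastQC 0.12.1, fastp 0.23.4, STAR 2.7.11b on GRCm39 and featureCounts. The deposited table holds the authors' raw counts per gene, unscaled. Not given in the sources used here are the annotation release, the strand setting and the handling of multiply mapped reads. Counts of overlapping or near-identical genes are therefore uncertain.

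Symbols, gene spans and exon lengths came from a GRCm38 annotation by gene identifier: 51486 of 78275 genes matched, with 98.4% of the counts. Batch is the month of the date in each label. In R 4.3.3, edgeR 4.0.16 (its filter on low counts, TMM, quasi-likelihood test, terms for group and batch) was fitted to all 24 libraries, with Benjamini-Hochberg adjustment over 17490 genes and a threshold of 0.05. Log2 CPM used a prior count of 2. Scripts were tested on simulated data. Libraries of a group were compared and none was a copy. The 8 genes and all lists were chosen with earlier results of these data known. Named besides the 8 were the 3 genes nearest in pattern to each, family genes that were called (0), and close relatives by name. Alternatives were a DESeq2 1.42.0 fit, edgeR with DESeq2's size factors, filters of none and of CPM 1 in 3 libraries, a fit without batch, November counted as October, October alone, compared groups alone, a replicate block, and each library left out. Removal of length trends, and the lists, ranks and levels per kb without RIC+DE+PFD 1, were added after the data were seen. Total counts limit precision most for Adamts12.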

Additional observations from a re-analysis of the deposited data

How the results depend on the processing

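The alternatives gave 432 differences of the 8 genes in comparisons with RIC+DE+PFD, counted over genes, comparisons and settings, and all stayed below 0. The choice of the genes on these libraries largely fixes this, and it is no sign of stability. In the 6 comparisons without that group, 3 member values passed the threshold under any alternative, all in RIC+DE minus DE and all without the batch term (Abcg3 with no batch term and with the compared groups alone, Cttnbp2 with the compared groups alone). Signs of small differences did change. With October alone Adamts12 in DE minus C was -0.13, Cttnbp2 in RIC minus C -0.07 and Abcg3 in DE+PFD+RIC minus DE+PFD 0.16. Adamts12 in RIC+DE minus DE was -0.25 with no batch term and -0.23 with the compared groups alone. Leaving out 1 library changed a sign in 17 results. In DE minus C the ranges were -0.22 to 0.01 for Cttnbp2, -0.04 to 0.48 for Inpp4b and -0.34 to 0.31 for Adamts12. In RIC minus C they were -0.03 to 0.06 for Slc8a1, -0.11 to 0.14 for Cttnbp2, -0.07 to 0.14 for Inpp4b, -0.22 to 0.33 for Adamts12 and -0.34 to 0.02 for Zfp462. They were -0.44 to 0.07 for Inpp4b in DE+PFD minus DE, -0.11 to 0.08 for Trps1 and -0.27 to 0.59 for Adamts12 in RIC+DE minus DE, and -0.82 to 0.06 for Adamts12 in DE+PFD+RIC minus DE+PFD. In DE+RIC minus DE they were -0.52 to 0.08 for Cttnbp2, -0.22 to 0.45 for Trps1, -0.47 to 0.05 for Inpp4b and -0.29 to 0.34 for Zfp462, and for Cttnbp2 in March minus October batch -0.14 to 0.05.

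Counts of genes called by edgeR, 0 in each comparison and 1 for the batch, moved with the method. The order below is DE minus C, RIC minus C, DE+PFD minus DE, RIC+DE minus DE, DE+RIC minus DE, DE+PFD+RIC minus DE+PFD, RIC+DE+PFD minus DE, minus DE+PFD and minus C, any difference among the 7 groups, and March minus October batch. DESeq2 called 17, 2, 15, 80, 13, 5, 69, 138, 37, 143 and 535 genes. With no filter edgeR called 199, 63, 180, 1129, 229, 131, 347, 674, 686, 1279 and 317, which include genes of very low counts. With no batch term it called 102 in RIC+DE minus DE, 3 in DE+RIC minus DE, 9 in RIC+DE+PFD minus DE, 1 in RIC+DE+PFD minus C and 103 for any difference. With the November library in October it called 2 in DE+RIC minus DE, 1 in RIC+DE+PFD minus DE+PFD, 4 for any difference and 13 for the batch. October alone gave 1 in DE+RIC minus DE, and 41, 5 and 31 in RIC+DE+PFD minus DE, DE+PFD and C. The compared groups alone gave 3784 in RIC+DE minus DE, where batch and group coincide, and 407 for any difference. DESeq2's size factors gave 1 in RIC+DE+PFD minus DE+PFD, and the filter of CPM 1 gave 1 there and 18 for the batch. The causes were not tested.

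Leaving out each library gave 0 to 16 genes in DE minus C and 0 to 13 in DE+PFD minus DE (the highest without DE 2 in each), 0 to 54 in RIC+DE minus DE (without RIC+DE 2), 0 to 14 in DE+RIC minus DE (without DE 2), 0 to 36 in RIC+DE+PFD minus DE (without DE 2), 0 to 23 in RIC+DE+PFD minus DE+PFD (without DE+PFD 3), 0 to 87 for any difference (without RIC+DE 2) and 0 to 2317 for the batch (without RIC+DE+PFD 1). It gave 0 throughout in RIC minus C, DE+PFD+RIC minus DE+PFD and RIC+DE+PFD minus C.

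Libraries with the same replicate number did not deviate together: r ran from -0.301 to 0.412, and in 0 of 6 comparisons were all over 0.1, so the numbers are not taken as pairs. The replicate block with the batch term called 16 genes in RIC+DE minus DE, 39 for any difference and 0 for the batch, and it put Adamts12 in DE minus C at -0.06, Trps1 in RIC+DE minus DE at 0.01, Zfp462 in DE+RIC minus DE at -0.01 and Zfp462 in March minus October batch at -0.07. The replicate block without the batch term called 30 genes in RIC+DE minus DE, 1 in DE+RIC minus DE and 54 for any difference, with Adamts12 in RIC+DE minus DE at -0.25.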

Other observations

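Among the 104 genes with all 3 RIC+DE+PFD libraries below the 21 others were Fbn1, Lox and Dnm3os. These 3 were picked after their values were seen, were not taken from a list and stand for no group of genes. Fbn1, which encodes fibrillin, had a log2 ratio of the group mean to the median of the others of -0.93, and -0.68 without RIC+DE+PFD 1. Lox, which encodes lysyl oxidase, an enzyme that crosslinks collagen, had -0.83 and -0.76. Dnm3os, a long RNA that hosts microRNAs, had -0.98 and -0.85.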
